A study of Homo sapiens with 4 samples.

Results

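Genes of the LIN28 and let-7 axis and of the oncofetal RNA-binding families were followed in RNA-seq libraries labelled NB4, an acute promyelocytic leukemia line that carries PML-RARa. The 10 genes were taken by name out of 64252 gene identifiers in the count table: LIN28A and LIN28B, IGF2BP1, IGF2BP2 and IGF2BP3, HMGA1 and HMGA2, and DICER1, TUT4 and DIS3L2. They were chosen by their place in this axis with their dBET1 and DMSO values already known, so their changes are a description and no p value is given for them. The treated group was 2 libraries of cells kept for 24 h in 8 μM dBET1, and the control group was 2 libraries of cells kept for 24 h in DMSO. dBET1 is a proteolysis-targeting chimera (PROTAC) that joins a ligand of the BET bromodomains to a ligand of the E3 ubiquitin ligase receptor cereblon, and so leads the bound protein to the proteasome. No label says whether the 2 libraries of a group came from separate cultures, so the spread between them may be technical.

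let-7 microRNAs are made as long precursors, cut to hairpins and then cut by DICER1 to the mature strand, which represses mRNAs with sites for its seed. The LIN28 proteins bind the let-7 hairpin and block its cutting, and LIN28A recruits the uridylating enzyme TUT4, after which the exonuclease DIS3L2 degrades the tailed hairpin. LIN28, IGF2BP and HMGA2 transcripts are themselves well-known let-7 targets. LIN28A, LIN28B, IGF2BP1, IGF2BP3 and HMGA2 are active in the embryo or fetal tissues and mostly silent in adult blood cells. They are often switched on again in tumours, hence the word oncofetal. let-7 and its processing enzymes are not limited in this way.

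The sequences on which this axis rests are shown because the members share them. The 12 let-7 hairpins of RefSeq (GRCh38.p14) gave 9 distinct mature 5p sequences, and 9 of the 9 held the same seed, bases 2 to 8, printed in capitals. They differ outside it.
let-7a-5p: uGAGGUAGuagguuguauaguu
let-7d-5p: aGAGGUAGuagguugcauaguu
let-7e-5p: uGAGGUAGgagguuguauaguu
let-7g-5p: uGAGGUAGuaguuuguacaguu
miR-98-5p: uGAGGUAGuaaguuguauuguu

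The LIN28 zinc knuckles are known for binding GGAG in the hairpin loop. GGAG stood after the 5p mature sequence in 9 of the 12 hairpins, and was absent there from those of MIR98, MIRLET7A3 and MIRLET7B. A hairpin with the motif, in capitals, and a hairpin without it are shown in RefSeq coordinates (GRCh38.p14). Both are whole RefSeq hairpin records, labelled pre-let-7 here, and they begin a few bases before the mature strand.
pre-let-7g, chr3:52268278-52268361 (− strand): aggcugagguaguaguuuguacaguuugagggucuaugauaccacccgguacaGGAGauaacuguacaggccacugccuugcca
pre-let-7b, chr22:46113686-46113768 (+ strand): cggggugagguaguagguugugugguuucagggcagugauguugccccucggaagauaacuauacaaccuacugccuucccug

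The 7-base match to the seed, CTACCTC on the transcript strand, was looked for in the 3′ UTR of the canonical transcript of each gene (GENCODE release 44, hg38). It stood in 7 of the 10 members at 16 places: 4 in LIN28B, 4 in IGF2BP1, 4 in HMGA2, and 1 each in LIN28A, IGF2BP2, IGF2BP3 and HMGA1. DICER1, TUT4 and DIS3L2 held 0. Of 19538 coding genes with a 3′ UTR, 9.77% held a match and 0.0614% held 4 or more, with a median 3′ UTR of 1064 bases against 2700 for the members. The members were picked as genes of the let-7 axis, so the matches describe them and are no test. In the sites below, each in the 3′ UTR, capitals mark the match, and the base A that follows it in each is known to strengthen let-7 sites.
LIN28A, chr1:26427349-26427370 (+ strand): cacagcctattgaaCTACCTCa
LIN28B, chr6:105078813-105078834 (+ strand): cccggttgcaaagtCTACCTCa
LIN28B, chr6:105081422-105081443 (+ strand): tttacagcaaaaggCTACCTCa
IGF2BP1, chr17:49051062-49051083 (+ strand): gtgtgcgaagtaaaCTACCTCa
IGF2BP1, chr17:49053699-49053720 (+ strand): agcagtgctagtaaCTACCTCa
IGF2BP2, chr3:185644220-185644241 (− strand): acacacagaagaagCTACCTCa
IGF2BP3, chr7:23311795-23311816 (− strand): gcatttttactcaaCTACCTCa
HMGA2, chr12:65963299-65963320 (+ strand): ccaacgttcgatttCTACCTCa

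The libraries held 28019956 to 34685645 counts. Counts were scaled to CPM, counts per 1000000 counts of the library, after TMM library factors of 0.918 to 1.08, and 17971 genes with enough counts were tested with edgeR's quasi-likelihood test. A gene was called at a Benjamini-Hochberg adjusted p under 0.05 with an absolute log2 fold change above 1. These are the thresholds in the methods of the study, whose volcano plot states a different p. The calls at the adjusted p alone were counted too. Granule genes that define the labelled promyelocyte were near 0 or absent. ELANE and CTSG, which encode granule proteases, had 0 counts in each library. The myeloperoxidase gene MPO had 0 counts with DMSO, and 22 and 10 with dBET1. Of 10 promyelocyte markers, 7 were tested, 2 were lower and 1, MPO, was higher. The sum of the list came mostly from genes that are not limited to promyelocytes: with DMSO, PML had 44.2 CPM, RARA 38.0 CPM, the myeloid transcription factor gene SPI1 28.2 CPM and CD33 10.9 CPM. Counts per gene do not show whether PML and RARA were fused. Together the 10 summed to 121 to 125 CPM with DMSO and 96.3 to 96.9 CPM with dBET1. The 12 erythroid markers, among them globins, GATA1 and TFRC, summed to 8050 to 8950 CPM and 4670 to 4680 CPM. The libraries are therefore called by their label only. The erythroid genes moved in the direction of the LIN28, IGF2BP and HMGA1 genes and not of DICER1 and TUT4. At the adjusted p alone, 10 of 12 were lower and 0 were higher, against 27.6% and 28.0% of all tested genes. The part of the erythroid genes in the members' values was not tested. In bulk RNA, fewer cells of a type and less RNA per cell cannot be told apart.

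Of the 10 members, 9 passed the filter on low counts and HMGA2 did not. In those 9 genes the DMSO and dBET1 libraries did not overlap in CPM, with 7 lower and 2 higher after dBET1, against 37.4% and 41.9% of all tested genes. LIN28A and LIN28B were lower past both thresholds, that is 2 members, against 8.54% of all tested genes. No member (0) was higher past both, against 16.9% of all tested genes. At the adjusted p alone, 6 members were lower against 27.6% of all tested genes, and 2 were higher against 28.0%. The choice of the members used this contrast, so nothing is read from these counts. The median log2 fold change of the 9 members was −0.571, and that of all tested genes was 0.0476.

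**Figure D1:**
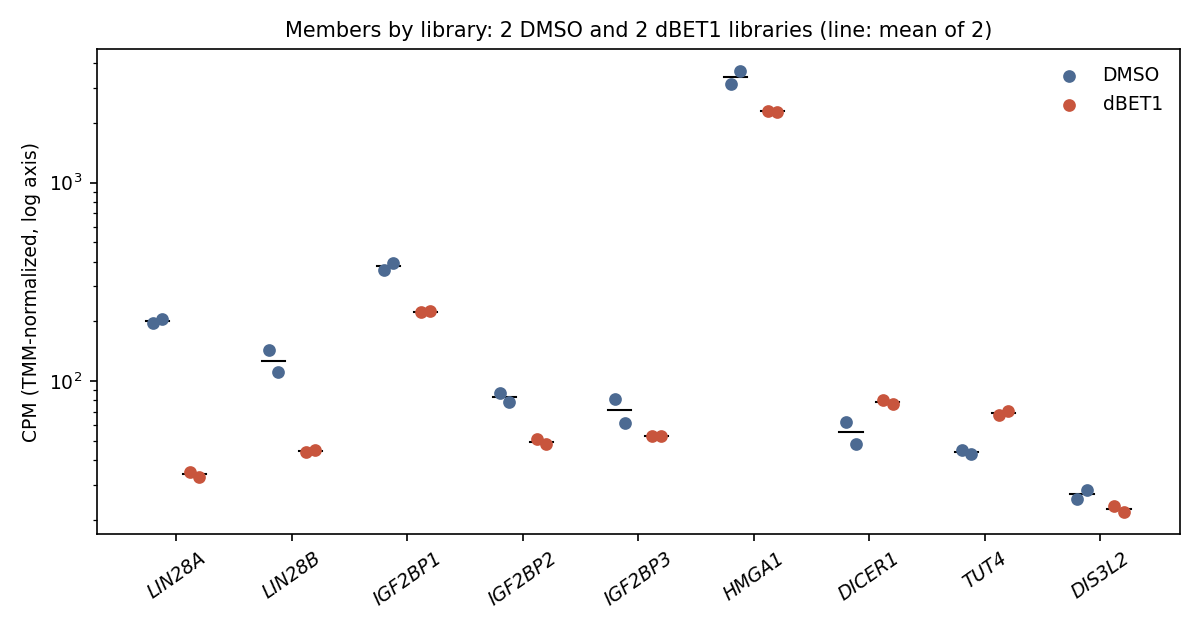
CPM (log axis) of the 9 members with counts in the 2 DMSO libraries (blue) and the 2 dBET1 libraries (red); each point is a library and each line the mean of 2. LIN28A falls from above 196 to below 36 CPM, and DICER1 and TUT4 rise. The dBET1 points lie closer together than the DMSO points for most members, among them LIN28B, IGF2BP3 and DICER1.

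LIN28A and LIN28B encode the RNA-binding proteins that give the axis its name. LIN28A (ENSG00000131914, chr1:26410817-26429728, + strand) was counted 6412 and 5801 times in DMSO and 1053 and 1007 times in dBET1. In CPM these were 196 and 206 against 35.1 and 33.0. The replicates lay close together and the groups far apart. The mean fell from 201 ± 7.02 to 34.0 ± 1.48 CPM (SD, n = 2), 5.92-fold lower, with a log2 fold change of −2.57 (SE 0.0836). It was 84th from the lowest among the fold changes of the 17971 tested genes.

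LIN28B (ENSG00000187772, chr6:104936616-105083332, + strand) was counted 4661 and 3120 times in DMSO and 1322 and 1373 times in dBET1, or 143 and 111 CPM against 44.0 and 45.0 CPM. The higher DMSO replicate was 28.7% above the lower, and the higher dBET1 replicate was 2.11% above the lower. Each DMSO library was still above each dBET1 library. The mean fell from 127 ± 22.5 to 44.5 ± 0.657 CPM (SD, n = 2), 2.85-fold lower, with a log2 fold change of −1.51 (SE 0.124). Without DMSO replicate 1 it was −1.35, and without DMSO replicate 2 it was −1.71.

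The balance of the LIN28 pair moved too. Per kilobase of exon, LIN28A made up 67.3% and 73.5% of the summed LIN28 level with DMSO, and 54.4% and 52.3% of it with dBET1. The ratio of LIN28A to LIN28B on this scale was 2.06 and 2.78 with DMSO and 1.19 and 1.10 with dBET1, with no overlap between the groups. The summed level of both genes was 72.0 CPM per kb with DMSO and 16.1 CPM per kb with dBET1.

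**Figure D2:**
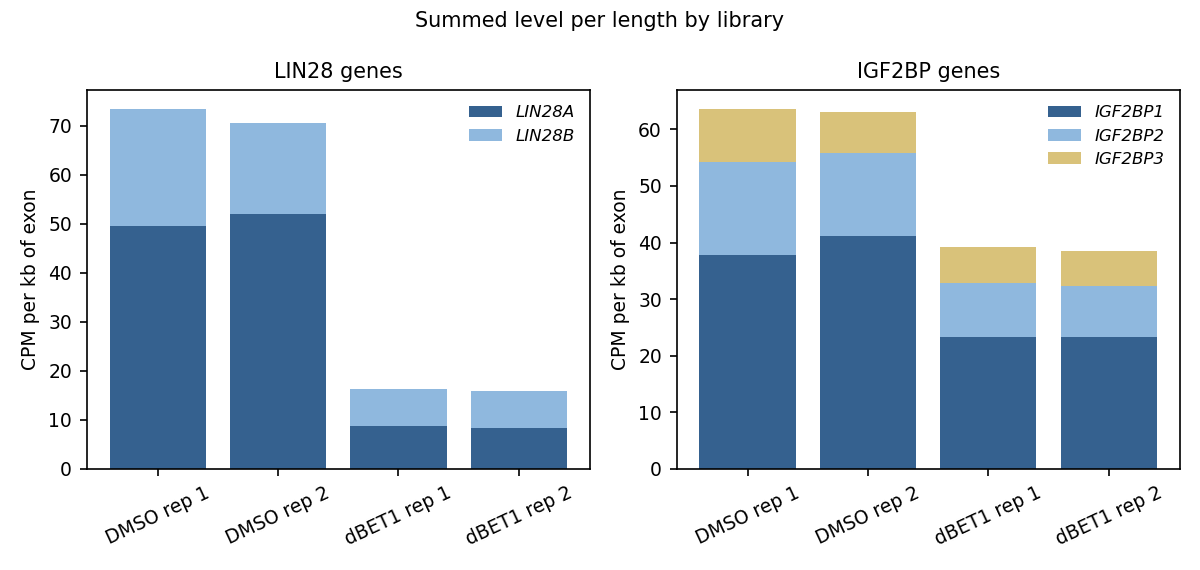
CPM per kb of exon, stacked by gene, for the LIN28 genes (left) and the IGF2BP genes (right) in each library. The LIN28 sum drops from 72.0 to 16.1 on average and its LIN28A part from 70.4% to 53.3%, while IGF2BP1 holds 62.2% and 60.0% of an IGF2BP sum that drops from 63.4 to 38.9.

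Among 9723 genes with a mean of at least 10 CPM, the genes nearest to LIN28A over the 4 libraries, by Euclidean distance of centred log2 CPM, were CRYAB at 0.0717, F2RL3 at 0.0921 and NME1 at 0.149. CRYAB, a small heat shock protein gene, had 24.4 ± 0.635 CPM with DMSO and 4.05 ± 0.0215 with dBET1. F2RL3, a thrombin receptor gene, had 40.3 ± 2.50 and 6.38 ± 0.310 CPM. NME1, a nucleoside diphosphate kinase gene that shares exons with the NME1-NME2 readthrough gene, had 332 ± 21.5 and 60.1 ± 1.66 CPM. Nearest to LIN28B were ENSG00000275464 at 0.128, the growth factor gene FGF2 at 0.131 and the caveolae gene CAVIN2 at 0.131. FGF2 went from 20.5 ± 2.75 to 6.97 ± 0.411 CPM and CAVIN2 from 77.1 ± 8.99 to 26.7 ± 1.33 CPM. The distances rest on 4 libraries and describe a shape over them.

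The IGF2BP proteins bind and stabilise mRNAs, among them those of IGF2 and MYC, and read N6-methyladenosine (m6A). IGF2BP1 (ENSG00000159217, chr17:48997385-49056145, + strand) had 364 and 396 CPM with DMSO and 224 and 225 CPM with dBET1. The 2 dBET1 libraries were nearly equal and both were below the DMSO libraries. The mean went from 380 ± 22.1 to 224 ± 0.201 CPM (SD, n = 2), which was 59.1% of DMSO, with a log2 fold change of −0.76 (SE 0.0737).

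IGF2BP2 (ENSG00000073792, chr3:185643130-185825042, − strand) had 87.0 and 78.8 CPM with DMSO and 51.1 and 48.3 CPM with dBET1. It moved almost as IGF2BP1 did, to 60.0% of DMSO, with a log2 fold change of −0.74 (SE 0.0913). IGF2BP3 (ENSG00000136231, chr7:23310209-23470491, − strand) had 81.4 and 61.8 CPM with DMSO and 53.3 and 52.9 CPM with dBET1. The higher of its DMSO replicates was 31.6% above the lower, and the lower lay close to the dBET1 libraries. Its log2 fold change was −0.43 (SE 0.130), and it went from −0.65 without DMSO replicate 2 to −0.25 without DMSO replicate 1. Its call at the adjusted p alone was lost without dBET1 replicate 1 and without dBET1 replicate 2. IGF2BP3 shares 1521 exon bases with MALSU1 on the other strand, which had 2262 and 2441 counts with DMSO and 1126 and 1134 with dBET1. The strand setting of the counting is not given in the sources used here, so the counts of this pair may share reads.

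Within the IGF2BP family the shares per kilobase changed little. IGF2BP1 held 59.4% and 65.1% of the sum with DMSO and 59.5% and 60.4% with dBET1. IGF2BP2 held 25.6% and 23.4%, then 24.5% and 23.5%. IGF2BP3 held 15.0% and 11.5%, then 16.0% and 16.1%. For IGF2BP1 and IGF2BP2 the groups overlapped on this share. For IGF2BP3 they did not. The size of the shares depends on the length used. With the longest transcript, the DMSO level of IGF2BP3 was 16.8 CPM per kb rather than 8.39, and that of IGF2BP1 was 43.2 rather than 39.4.

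The HMGA proteins are small chromatin proteins that bind AT-rich DNA. HMGA1 (ENSG00000137309, chr6:34236873-34246231, + strand) was the most abundant member and ranked 11th in CPM with DMSO. It had 102580 and 102235 counts with DMSO and 68974 and 69228 with dBET1, or 3144 and 3638 CPM against 2298 and 2268 CPM. Both dBET1 libraries were below both DMSO libraries. The log2 fold change was −0.57 (SE 0.0828), or 67.3% of DMSO. The 8 HMGA1 pseudogenes in the table had at most 90 counts in a library. HMGA2 (ENSG00000149948, chr12:65824460-65966291, + strand), the paralog that is the classic let-7 target, had 0 counts in each of the 4 libraries. A count of 0 allows up to 3 counts, or 0.0919 to 0.107 CPM, which covers counting error only.

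DICER1, TUT4 and DIS3L2 are the enzymes that cut, tail and degrade the let-7 hairpin. DICER1 (ENSG00000100697, chr14:95086228-95158010, − strand) had 62.3 and 48.5 CPM with DMSO and 80.4 and 76.9 CPM with dBET1. The dBET1 libraries were both higher, and the higher DMSO library was 28.3% above the lower. Its log2 fold change was 0.50 (SE 0.123), 0.31 without DMSO replicate 2 and 0.67 without DMSO replicate 1. Its call at the adjusted p alone was lost without dBET1 replicate 1.

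TUT4 (ENSG00000134744, chr1:52408282-52553487, − strand) had 45.2 and 43.1 CPM with DMSO and 67.4 and 70.4 CPM with dBET1. Its replicates were close in both groups. The mean rose from 44.2 ± 1.49 to 68.9 ± 2.16 CPM (SD, n = 2), or 156% of DMSO, with a log2 fold change of 0.64 (SE 0.0866). DIS3L2 (ENSG00000144535, chr2:231961245-232344350, + strand) had 25.6 and 28.4 CPM with DMSO and 23.6 and 22.0 CPM with dBET1. The groups did not overlap, but their nearest libraries, at 25.6 and 23.6 CPM, lay closer to each other than the DMSO replicates did. Its log2 fold change was −0.24 (SE 0.116). It missed the call at the adjusted p alone in the fit of the 4 libraries and made it without DMSO replicate 1.

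**Figure D3:**
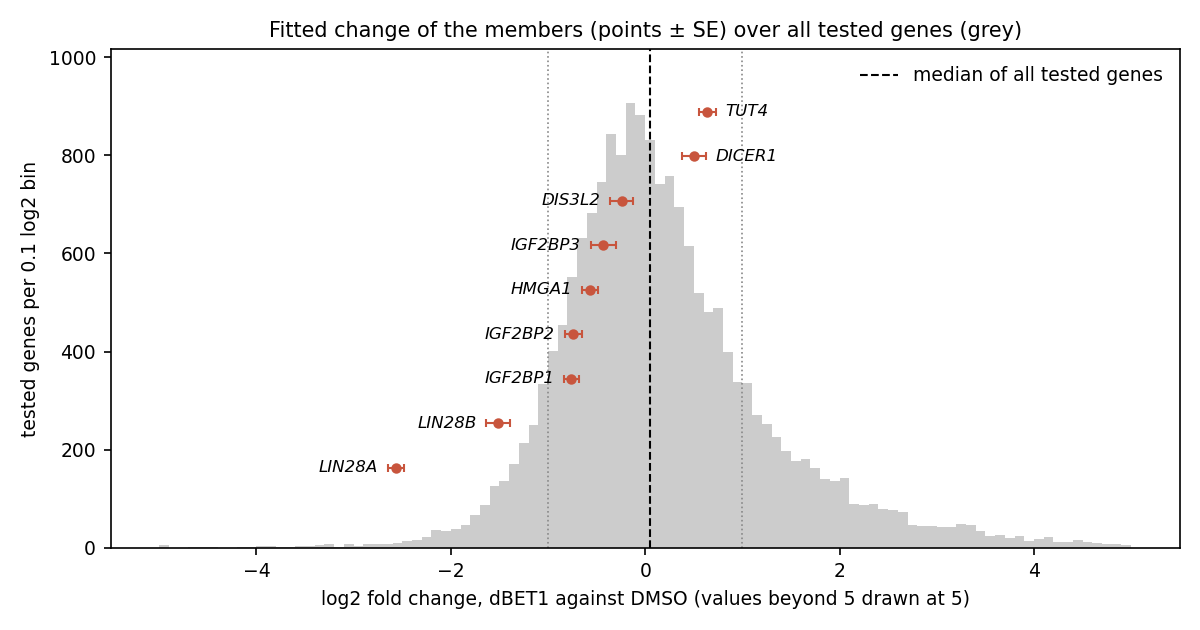
Fitted log2 fold change of the 9 tested members (red points, bars ± SE, stacked by size) over a histogram of the 17971 tested genes (grey); the dashed line is the median of all tested genes, 0.0476, and the dotted lines mark the fold threshold of 1. LIN28A at −2.57 and LIN28B at −1.51 lie beyond the threshold, and the other members lie within it on both sides of the median.

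On the scale of CPM per kb of exon, the order of the levels with DMSO was HMGA1 at 1457 ± 150, LIN28A at 50.7 ± 1.77, IGF2BP1 at 39.4 ± 2.29, LIN28B at 21.4 ± 3.79, IGF2BP2 at 15.6 ± 1.08, IGF2BP3 at 8.39 ± 1.62, TUT4 at 2.73 ± 0.0919, DICER1 at 2.50 ± 0.438 and DIS3L2 at 2.38 ± 0.171 (SD, n = 2). TUT4, DICER1 and DIS3L2 overlapped, and no other neighbours in the order did. With dBET1 the order was HMGA1 at 981, IGF2BP1 at 23.3, IGF2BP2 at 9.33, LIN28A at 8.56, LIN28B at 7.49, IGF2BP3 at 6.22, TUT4 at 4.25, DICER1 at 3.55 and DIS3L2 at 2.01, with no overlap between neighbours. LIN28A was thus above IGF2BP1 and IGF2BP2 with DMSO and below both with dBET1. With the longest transcript as the length, LIN28A and IGF2BP1 kept their places after HMGA1 with DMSO, at 50.7 and 43.2. TUT4 at 7.54, DIS3L2 at 5.79 and DICER1 at 4.36 then took the last places. With dBET1 that length put IGF2BP3 at 12.4, TUT4 at 11.8 and IGF2BP2 at 11.6 above LIN28A at 8.56, so the lower ranks depend on the length used.

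Promoter sequence was at hand for 13 start sites of 6 members in RefSeq (GRCh38.p14), in windows of 250 bases before and 50 after the start. None was at hand for LIN28A, IGF2BP1, HMGA2 and TUT4, so their promoters were not searched. The E-box CACGTG, which reads the same on both strands and is the best-known site of MYC and its partner MAX, stood in 2 of the 13 windows and in 7.26% of 35116 RefSeq promoters. These were the downstream start of LIN28B, 47 bases before it, and the start of IGF2BP3, 174 and 146 bases before it. Both stretches are shown with the E-box in capitals.
LIN28B, chr6:104957033-104957092 (+ strand): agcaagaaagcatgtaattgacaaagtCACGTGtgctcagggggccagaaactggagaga
IGF2BP3, chr7:23470605-23470692 (− strand): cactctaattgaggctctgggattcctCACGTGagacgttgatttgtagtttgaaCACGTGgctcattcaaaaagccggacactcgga
The GC box GGGCGG, searched on both strands, stood in 7 of the 13 windows and in 45.0% of all. A match says only that the letters are there. MYC itself, for reference, had 445 and 465 CPM with DMSO and 278 and 269 CPM with dBET1, a log2 fold change of −0.73 (SE 0.0696).

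Other genes of the pathway were gathered in 10 lists of 165 genes, of which 128 were tested. At the adjusted p alone, 61 were lower and 22 were higher. Of all tested genes, 27.6% were lower and 28.0% were higher at that rule, and the counts of each list below stand beside these shares. The lists were drawn up by function, but with earlier results of these data known, so their counts are a description and no test. They are described here by counts and medians, the medians beside the all-gene median of 0.0476.

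**Figure D4:**
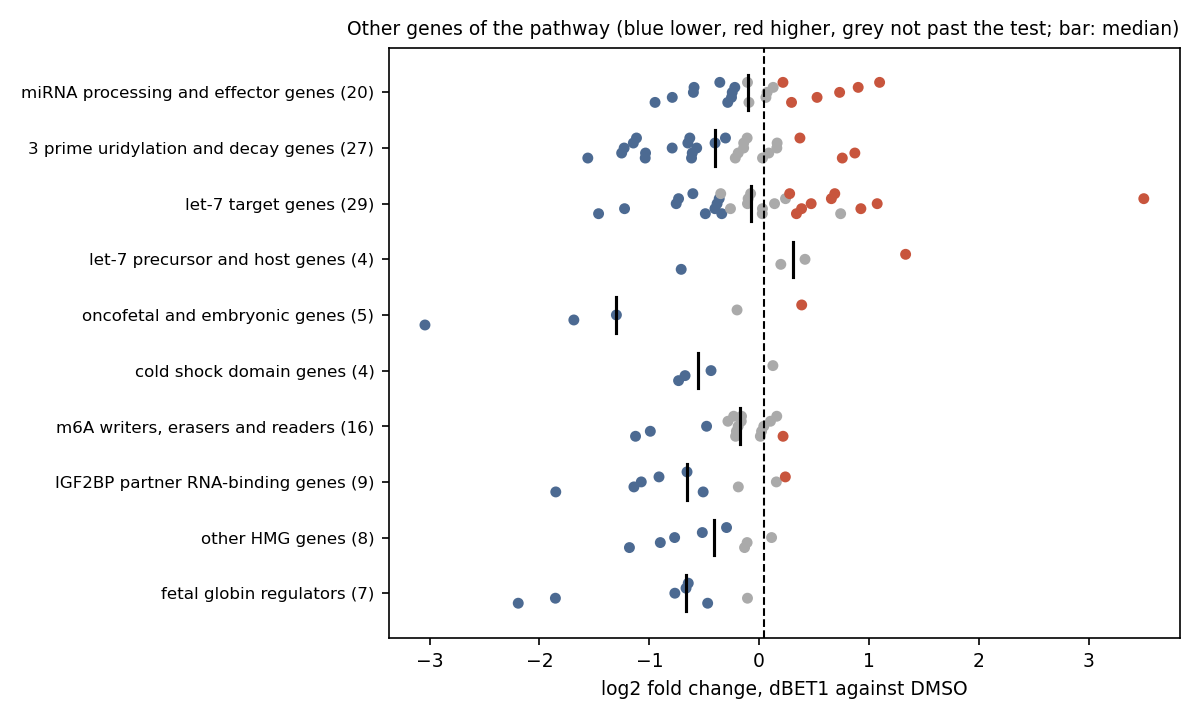
Log2 fold change of each tested gene in the 10 lists, with the number tested in brackets; blue points are lower and red points higher at an adjusted p under 0.05, grey points did not pass, black bars are list medians and the dashed line is the median of all tested genes. Uridylation and decay genes sit mostly to the left at a median of −0.401, and miRNA processing genes fall on both sides at −0.0998.

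Genes of miRNA processing and its effectors split. Of 20 tested, 9 were lower, 6 were higher and 5 did not pass, with a median of −0.0998. The median changed sign with total counts as the only scaling (0.107) and without DMSO replicate 1 (0.0790), and was −0.254 without DMSO replicate 2. RAN, the GTPase that drives hairpin export with XPO5, fell from 933 ± 43.6 to 484 ± 1.99 CPM (log2 fold change −0.95, SE 0.0697). HNRNPA1, which binds some primary miRNAs, fell by 0.59 on the log2 scale. AGO4, an Argonaute gene, rose from 12.0 ± 0.667 to 25.7 ± 0.682 CPM (log2 fold change 1.10, SE 0.126). The partners of the nuclear cutting step moved in opposite directions by small amounts: DROSHA had a log2 fold change of −0.36 and DGCR8 of 0.22, and both lost the call without dBET1 replicate 1 and without dBET1 replicate 2. DROSHA also lost it with total counts only, and DGCR8 with DESeq2 and with no filter on low counts. AGO2 had 96.0 and 58.2 CPM with DMSO against 71.6 and 71.8 CPM, and did not pass.

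Genes of uridylation and RNA decay moved more to the lower side. Of 27 tested, 15 were lower, 3 were higher and 9 did not pass, with a median of −0.401. The RNA exosome, a complex that degrades RNA from its 3′ end, made up much of this. Of the 10 genes EXOSC1 to EXOSC10, 9 were lower, 5 of them past the fold threshold too, and 0 were higher. EXOSC5 fell from 57.6 ± 8.76 to 19.5 ± 0.489 CPM (log2 fold change −1.56, SE 0.126) and EXOSC3 from 127 ± 3.23 to 53.3 ± 1.44 CPM (−1.25, SE 0.0801). MTREX, the helicase that feeds the nuclear exosome, fell by 1.04 on the log2 scale. XRN2, a nuclear exonuclease, had 149 ± 21.3 and 131 ± 1.11 CPM and did not pass. TUT7, the partner of TUT4 in uridylation, had 28.4 and 23.1 CPM with DMSO against 30.2 and 27.6 CPM, and did not pass.

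Other let-7 targets held no common direction. Of 34 listed, 29 were tested, 10 were lower, 9 were higher and 10 did not pass, with a median of −0.0778. The median changed sign with total counts as the only scaling (0.134) and without DMSO replicate 1 (0.0368). CCND1, the gene of cyclin D1, fell from 118 ± 3.87 to 42.7 ± 2.24 CPM (log2 fold change −1.46, SE 0.0861). NAP1L1 had 537 ± 13.4 and 592 ± 1.04 CPM, HIC2 had 421 ± 17.2 and 391 ± 17.7 CPM, and neither passed. INSR, the insulin receptor gene, had 2 and 0 counts with DMSO and 14 and 11 with dBET1. TRIM71, an embryonic let-7 target, had 0 and 0 counts with DMSO and 2 and 2 with dBET1.

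The let-7 transcripts themselves were barely captured. The 10 hairpin genes in the table summed to 10 and 11 counts with DMSO and 23 and 20 with dBET1. Levels of mature let-7 were not measured. Of 20 precursor and host genes listed, 17 were in the table and 4 were tested, with 1 lower, 1 higher and a median of 0.307, which was 0.152 without DMSO replicate 2 and 0.419 without DMSO replicate 1. Of the host genes, MIRLET7IHG rose from 94 and 96 counts to 227 and 253, or from 3.15 ± 0.379 to 7.93 ± 0.512 CPM (log2 fold change 1.33, SE 0.212). MIRLET7BHG had 2 and 0 counts with DMSO and 6 and 1 with dBET1. WDR82, which hosts MIRLET7G, fell by 0.71 on the log2 scale, and HUWE1, which hosts MIR98 and MIRLET7F2 in its introns, had 432 ± 55.9 and 495 ± 7.35 CPM and did not pass.

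The wider oncofetal program was largely silent. Of 22 oncofetal and embryonic genes, 5 were tested, 3 of them lower and 1 higher, with a median of −1.3 that was −0.680 when at least 10 counts were asked of every sample. The telomerase gene TERT fell from 13.4 ± 1.90 to 4.16 ± 0.00329 CPM (log2 fold change −1.69, SE 0.189). AFP, which encodes alpha-fetoprotein, had 33 and 50 counts with DMSO and 2 and 8 with dBET1. PRAME, a cancer-testis antigen gene, rose from 627 ± 21.7 to 819 ± 19.5 CPM (log2 fold change 0.39, SE 0.0683). DLK1 had 229 ± 19.4 and 199 ± 0.485 CPM and did not pass. SALL4 and L1TD1 had 0 counts in each library, and IGF2, the transcript after which the IGF2BP genes are named, had 2 and 0 counts with DMSO and 2 and 4 with dBET1.

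Genes of proteins that resemble or accompany the members were mostly lower. Of 6 cold shock domain genes, 4 were tested, 3 were lower, 0 were higher and 1 did not pass, with a median of −0.556. None (0) was lower past the fold threshold too. YBX1, which carries the cold shock domain that LIN28 also holds, fell from 1631 ± 45.7 to 1022 ± 45.1 CPM (log2 fold change −0.67, SE 0.0694). Of 9 RNA-binding partners of the IGF2BP proteins, 6 were lower and 1 was higher, with a median of −0.657. HNRNPA2B1 fell from 1745 ± 55.4 to 483 ± 12.0 CPM (log2 fold change −1.85, SE 0.0693), and SYNCRIP fell by 1.14 on the log2 scale. PABPC1, the poly(A)-binding protein gene, was the higher gene at a log2 fold change of 0.24 (SE 0.0650), a call lost without either dBET1 replicate and with no filter on low counts. Of 8 other HMG genes, 5 were lower and 0 higher, with a median of −0.407. HMGN5 fell by 1.18 and HMGB1 by 0.90 on the log2 scale, while HMGB2 had 348 ± 2.80 and 376 ± 10.9 CPM and HMGN2 had 405 ± 2.45 and 370 ± 9.34 CPM, and neither passed.

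Most genes of the m6A machinery, the mark that IGF2BP proteins read, did not pass. Of 16 tested, 3 were lower, 1 was higher and 12 did not pass, with a median of −0.177. The median changed sign with total counts as the only scaling (0.0308), and was −0.0762 without DMSO replicate 1 and −0.269 without DMSO replicate 2. The lower genes included the methyltransferases METTL3 (84.2 ± 4.27 to 38.6 ± 3.32 CPM, log2 fold change −1.13, SE 0.0978) and METTL16 (−0.99, SE 0.0879). The eraser ALKBH5 had a log2 fold change of 0.22 (SE 0.0698), a call lost without either dBET1 replicate, with DESeq2 and with no filter on low counts. The reader YTHDF2 had 97.6 ± 1.98 and 98.4 ± 1.88 CPM.

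LIN28B is known as a regulator of fetal hemoglobin, which makes the globin genes of these libraries of interest beside it. Of 7 tested fetal globin genes and regulators, 6 were lower and 0 higher, with a median of −0.666. HBG2 had 2464 and 2985 CPM with DMSO and 1721 and 1762 CPM with dBET1 (log2 fold change −0.65, SE 0.0951), and HBG1 had a log2 fold change of −0.67 (SE 0.123). HBG1 and HBG2 are near-identical, so reads may be split between them. The transcription factor genes KLF1 (−2.19, SE 0.105) and MYB (−1.85, SE 0.0870) fell furthest. BCL11A, the adult-stage repressor of HBG, had 0 counts in each library, and HIC2, a let-7 target that represses BCL11A, did not pass. HBG1, HBG2 and KLF1 are also among the erythroid markers summed above.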

How the data were processed

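RNA of 4 libraries was sequenced. The authors had clean reads aligned to hg38 with HISAT2 2.2.0 (the version in the submitters' processing notes) and quantified with StringTie, and deposited unnormalized gene counts, all of them whole numbers. How abundances became counts, and with which strand setting, is not given in the sources used here, so overlapping genes and near-identical copies can share counts. All 4 columns were assigned to a sample, with 0 unused columns and 0 rows without a gene. The control columns are named NC and not DMSO. They were taken as the DMSO samples because no other control is in the labels, with time and replicate number matched. Of 64252 identifiers, 56105 had an entry in GENCODE release 44, which gave symbols, coordinates and exon lengths. let-7 and promoter sequences came from RefSeq (GRCh38.p14).

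Counts were filtered with filterByExpr, scaled with TMM and compared between groups with edgeR 4.0.16 (limma 3.58.1, R 4.3.3) by the quasi-likelihood test with Benjamini-Hochberg adjustment over 17971 genes. A standard error is the log2 fold change divided by the square root of F, in absolute value. The biological coefficient of variation was 0.123. Replicates differed by more than counting error (chi-square per degree of freedom 23.6 for DMSO and 8.14 for dBET1). SDs rest on 2 values. The steps were tested on simulated data.

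The members and lists were chosen with earlier results of these data known. Named are the 10 members, of each list the 2 genes with the highest CPM and the 2 with the largest change among those past the adjusted p, partners of the let-7 pathway, marker genes, and the 3 genes most alike to LIN28A and to LIN28B. MALSU1, the pseudogenes and the exosome subunits as a group were named after their values were seen. Some genes that this rule picks are not reported here. Of the list symbols, 3 were not matched in the table. Alternatives were DESeq2 1.42.0, its size factors, total counts only, 2 other filters, a block for the replicate number, leaving out each library, counts divided by 2 (in case a fragment was counted for each mate), other thresholds and the longest transcript. Python 3.11.15 and matplotlib 3.10.9 were used for sequences and plots.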

Additional observations from a re-analysis of the deposited data

How the results depend on the processing

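The 9 tested members kept the sign of their log2 fold change under each of the 11 alternatives, and LIN28A and LIN28B stayed past both thresholds with no other member joining them. LIN28A ranged from −2.63 to −2.35 and LIN28B from −1.71 to −1.30. Total counts as the only scaling moved the median of all genes from 0.0476 to 0.257, that of the uridylation and decay genes to −0.192 and that of the other HMG genes to −0.197. Relative to 1535 lower and 3032 higher genes, that scaling gave 952 lower, a minimum of 10 counts in every sample gave 1940 higher, and dropping the fold threshold gave 4953 lower and 5038 higher. Relative to 61 lower and 22 higher listed genes, total counts only gave 36 higher, no filter on low counts gave 12 higher, and the fold threshold left 19 lower and 4 higher. With a library left out, 13 to 28 listed genes were higher, with 13 without dBET1 replicate 1 and 14 without dBET1 replicate 2. The lone library of a group was then assumed to vary like the other pair. At the adjusted p alone IGF2BP3 lost its call with total counts only, and IGF2BP3 and DICER1 lost theirs with no filter. With 2 pairs the deviations of same-numbered libraries correlated at 0.00231, so the numbers were not taken as pairs; a replicate block gave 1530 lower and 2945 higher genes, 61 lower and 20 higher listed genes, and 2 lower and 0 higher members, and of the named list genes DGCR8 and ALKBH5 lost their calls under it. Causes of these shifts were not tested. No fold can be given for HMGA2 or for genes at a few counts, and whether depth or capture sets the counts of the let-7 hairpins was not tested. All errors rest on 2 libraries a group.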

Other observations

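Beyond the members, tested coding genes were sorted by the number of let-7 seed matches in their 3′ UTR, as a description with no test. Among 11132 genes with 0 matches, 9.78% were lower and 13.5% were higher past both thresholds, with a median log2 fold change of −0.063. Among 1172 genes with 1 match, 5.72% were lower and 15.4% were higher, with a median of 0.0347. Among 127 genes with 2 matches, 6.3% were lower and 11% were higher, with a median of 0.146. Among 24 genes with 3 or more, 0 were lower and 2 were higher, with a median of 0.191. Those 2 were low in level: C14orf28 had 0.749 CPM with DMSO and 1.76 with dBET1, and PTAFR 0.683 and 2.66. The 6 tested members with a match, left out of these classes, had negative log2 fold changes. The median 3′ UTR grew with the class, from 1083 to 2767, 4634 and 6519 bases, and its part in these values was not tested.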
